A study of Mus musculus with 9 samples.

Results

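Transcripts of 10 matrix metallopeptidase genes (Mmp2, Mmp3, Mmp9, Mmp10, Mmp11, Mmp12, Mmp13, Mmp14, Mmp15 and Mmp19) were followed in mouse mammary epithelial cells that overexpress full-length or mutated Mkl1. Mmp3, Mmp10, Mmp12 and Mmp13 lie together on chromosome 9 and are called clustered here, and the other 6 genes are dispersed over the genome. For each gene the probeset annotated to that gene alone was taken, and 9 of the 10 genes had one, out of 13157 genes that were tested with a mean log2 level of at least 4. The probeset of Mmp15 is unnamed in the array annotation used here and was identified only through the study's own list of regulated probesets. Since that list was made from these contrasts, Mmp15 is described without a test and is left out of all counts.

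HC11 is a line of mammary epithelial cells derived from a BALB/c mouse in mid-pregnancy. Mkl1 co-activates transcription with serum response factor (SRF) and carries a SAP domain, a putative DNA-binding motif. HC11-mutB1 cells stably expressed Mkl1 with alanine substitutions in the B1 domain that contacts SRF, HC11-ΔSAP cells expressed Mkl1 without the SAP domain, and HC11-FL control cells expressed full-length Mkl1. All 3 strains carried the construct with a C-terminal RFP tag, were selected with Geneticin and sorted for RFP, and were kept in 0.03% FCS without EGF for 48 h before RNA was taken. Each construct was represented by 1 sorted strain and no empty vector strain was arrayed, so the differences below are between overexpressing strains and do not include the spread between independently made ones.

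Matrix metallopeptidases are zinc-dependent endopeptidases that are made as inactive proenzymes and cleave components of the extracellular matrix, growth factors and cell surface proteins. In the mammary gland they take part in branching of the ducts and in the remodelling of the gland after lactation. Stromelysins such as Mmp3 and Mmp10 have a broad range of substrates and activate other proenzymes, collagenases such as Mmp13 cleave fibrillar collagen, gelatinases such as Mmp2 and Mmp9 cleave denatured and basement membrane collagen, and the membrane-anchored Mmp14 activates the Mmp2 proenzyme at the cell surface. Their activity is held in check by the tissue inhibitors of metallopeptidases (Timp genes). Transcript levels, the only quantity measured here, do not show enzyme activity.

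The 9 arrays, 3 per strain, had median log2 levels of 4.53 to 4.60, and correlated at r = 0.994 to 0.995 across probesets within a strain and at 0.985 to 0.989 between strains. The sources do not say beyond triplicate growth whether the 3 samples of a strain were independent cultures, so the p-values measure only the spread between these samples. Markers of luminal epithelium were present at 4 or more in every array for Epcam, Cdh1, Krt8, Krt18 and Cldn7, with Krt19 below 4, and so were all 6 basal markers (Krt5, Krt14, Krt17, Trp63, Itga6 and Cdh3). The Mkl1 probeset may read construct and endogenous transcript together. It averaged 9.83 ± 0.07 in HC11-mutB1, 9.47 ± 0.07 in HC11-ΔSAP and 9.95 ± 0.11 in HC11-FL cells (log2 level, SD, n = 3 each). Its difference from HC11-FL was -0.48 in HC11-ΔSAP (adjusted p = 0.00177, limma) and -0.12 in HC11-mutB1 cells (adjusted p = 0.313). Whether its probes lie in the construct or in the deleted SAP domain was not examined, so these values need not be construct levels. In 15714 of the probesets of the table (45.2%) a value recurred exactly between arrays, which can make the spread of a strain too small; this touched Mmp10, Mmp13 and Mmp15.

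A gene was called changed when it passed 3 filters: an adjusted p no higher than 0.01 (limma, Benjamini-Hochberg over all probesets), a change of 2-fold or more and an average log2 level of 4 or more over the 9 arrays. Against HC11-FL, the 4 clustered genes were all lower in HC11-mutB1 cells and 3 of them were lower in HC11-ΔSAP cells, whereas of the 5 dispersed genes tested only Mmp19 was lower in each mutant strain. Mmp2 alone was higher, and only in HC11-ΔSAP cells. Thus 5 of 9 genes were called lower and 0 higher in HC11-mutB1 cells, beside 1.67% lower and 2.21% higher among all genes tested, and 4 were called lower and 1 higher in HC11-ΔSAP cells, beside 2.07% and 2.06%. The genes were chosen with earlier results of these data known, so these counts describe the family and are not a test of it. The 3 HC11-FL arrays serve in both comparisons, whose values are given side by side.

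**Figure D1:**
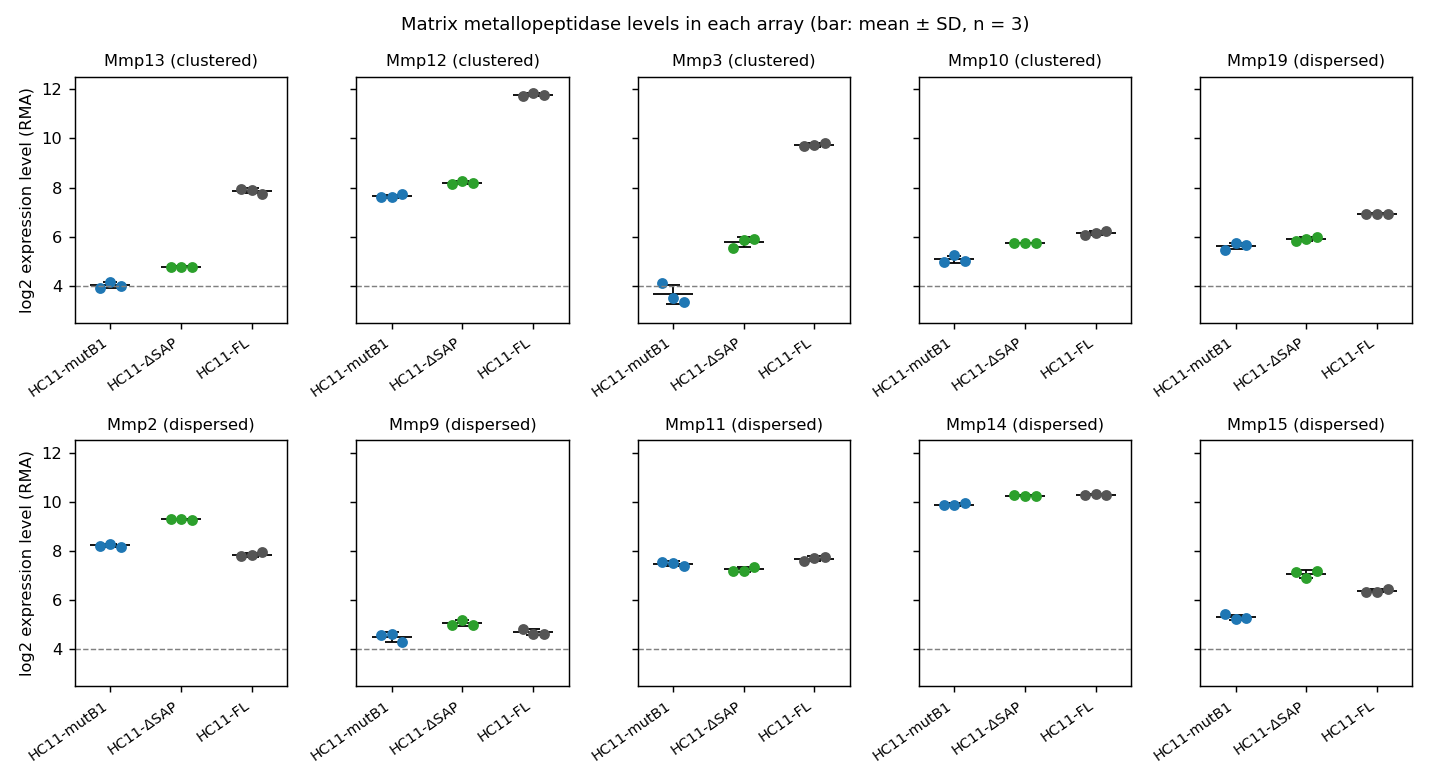
Log2 expression level (y axis, RMA) of each metallopeptidase in the 3 arrays of HC11-mutB1, HC11-ΔSAP and HC11-FL cells (x axis). Points are arrays, bars the mean ± SD (n = 3), and the dashed line marks the log2 level of 4 below which a signal was treated as near background. Mmp3 lay between 3.35 and 4.10 in HC11-mutB1, between 5.53 and 5.92 in HC11-ΔSAP and between 9.68 and 9.82 in HC11-FL cells.

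The stromelysin Mmp3 (GRCm38.p6, chr9:7445822-7455975) showed the widest separation of the strains. Its log2 levels were 4.10, 3.50 and 3.35 in the HC11-mutB1 arrays, 5.53, 5.87 and 5.92 in the HC11-ΔSAP arrays, and 9.68, 9.72 and 9.82 in the HC11-FL arrays. The 3 strains did not overlap, and in 2 of the 3 HC11-mutB1 arrays the signal was under the background level of 4. With values under 4 set to 4, Mmp3 in HC11-mutB1 cells was at least 52.2-fold below its HC11-FL level (fitted log2 fold change -6.09, SE 0.19, adjusted p = 5.33e-07). In HC11-ΔSAP cells it was 15.6-fold lower (log2 fold change -3.97, SE 0.19, adjusted p = 4.67e-06).

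Mmp10, the second stromelysin of the cluster (chr9:7502342-7510242), changed least of the 4 genes. Its log2 levels were 4.98, 5.25 and 5.02 in HC11-mutB1 cells, 5.75 in each of the 3 HC11-ΔSAP arrays, and 6.08, 6.17 and 6.24 in HC11-FL cells. The strains kept the same order as for Mmp3, without overlap, but were set apart by about 1 log2 unit at most. Mmp10 was 2.11-fold lower in HC11-mutB1 cells (-1.08 on the log2 scale, SE 0.08, adjusted p = 3.66e-05), and the difference of HC11-ΔSAP cells was -0.41 (1.33-fold, adjusted p = 0.00584), under the fold minimum. The 3 HC11-ΔSAP values were identical. The adjusted p of that second difference was over 0.01 in 10 of 16 alternatives and 0.0534 at the highest, with the spread of every probeset raised to at least the upper quartile over expressed probesets.

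Mmp12, the macrophage elastase (chr9:7344397-7360461), had log2 levels of 7.61, 7.60 and 7.72 in the HC11-mutB1 arrays, 8.15, 8.26 and 8.18 in the HC11-ΔSAP arrays, and 11.72, 11.84 and 11.78 in the HC11-FL arrays. The strains did not overlap, and the transcript stayed above the background level in both mutants. Relative to HC11-FL cells it was 17.6-fold lower in HC11-mutB1 cells (log2 fold change -4.14, SE 0.06, adjusted p = 2.76e-08), and in HC11-ΔSAP cells the decrease was 12.0-fold (-3.59, adjusted p = 4.43e-08). Of 6 macrophage markers, Ptprc, Adgre1, Itgam and Mrc1 were below 4 in every strain, Csf1r averaged 4.86, 4.57 and 4.75, and Cd68 averaged 7.35, 8.14 and 7.69 in HC11-mutB1, HC11-ΔSAP and HC11-FL cells. The log2 of the summed marker levels was 7.82 to 7.84, 8.41 to 8.43 and 8.06 to 8.09 in the same order of strains.

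Mmp13, a collagenase (chr9:7272514-7283333), had log2 levels of 3.93, 4.15 and 3.99 in the HC11-mutB1 arrays, 4.79, 4.79 and 4.77 in the HC11-ΔSAP arrays, and 7.94, 7.91 and 7.75 in the HC11-FL arrays. As with Mmp3, the HC11-mutB1 signal was at the background level, with 2 of 3 arrays under it. Mmp13 was at least 14.1-fold lower in HC11-mutB1 cells with values under 4 set to 4 (fitted log2 fold change -3.84, SE 0.07, adjusted p = 7.18e-08). In HC11-ΔSAP cells it was 8.47-fold lower (log2 fold change -3.08, SE 0.07, adjusted p = 1.67e-07). The first 2 HC11-ΔSAP values were identical.

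Among the dispersed genes, Mmp19 (chr10:128790910-128800827), which cleaves basement membrane components, moved in the same direction as the cluster. Its log2 levels were 5.46, 5.73 and 5.67 in the HC11-mutB1 arrays, 5.82, 5.90 and 5.99 in the HC11-ΔSAP arrays, and 6.94, 6.91 and 6.93 in the HC11-FL arrays. All 6 mutant arrays were below all HC11-FL arrays, by at least 0.92 log2 units. The decrease was 2.47-fold in HC11-mutB1 cells (-1.31 on the log2 scale, SE 0.08, adjusted p = 1.21e-05), against 2.04-fold in HC11-ΔSAP cells (-1.03, adjusted p = 4.41e-05). The second of these lay close to the fold minimum, and without HC11-ΔSAP replicate 1 it was -0.99 and no longer passed.

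The gelatinase Mmp2 (chr8:92827290-92853421) went the other way. Its log2 levels were 8.22, 8.29 and 8.17 in the HC11-mutB1 arrays, 9.30, 9.31 and 9.27 in the HC11-ΔSAP arrays, and 7.78, 7.83 and 7.94 in the HC11-FL arrays. Both mutant strains lay above HC11-FL cells without overlap. The difference was 2.72-fold in HC11-ΔSAP cells (1.44 on the log2 scale, SE 0.05, adjusted p = 1.34e-06), against 1.30-fold in HC11-mutB1 cells (0.38, SE 0.05, adjusted p = 0.00184), the second under the fold minimum. Fabp4, a lipid-binding protein of adipocytes, and the fibroblast proteoglycan Dcn were also highest in HC11-ΔSAP cells, at 9.26 and 6.82, against 6.96 and 4.52 in HC11-mutB1 and 7.93 and 5.01 in HC11-FL cells. The other adipocyte markers Adipoq and Lep were below 4 in all strains and Plin1 averaged 4.57 to 4.66, so that 2 of 4 reached 4 in all arrays, with a log2 of the summed levels of 7.17 to 7.43 in HC11-mutB1, 9.26 to 9.43 in HC11-ΔSAP and 8.07 to 8.26 in HC11-FL cells. At the same time, the summed fibroblast markers (5 of 6 at 4 or more in all arrays, with Lum below 4) spanned 8.46 to 8.59 in HC11-mutB1, 8.71 to 8.75 in HC11-ΔSAP and 8.71 to 8.75 in HC11-FL cells. Among those at 4 or more, Dcn alone was higher in HC11-ΔSAP than in HC11-FL cells. In that comparison Pdgfra differed by -0.42 and Pdgfrb by -0.38 on the log2 scale (adjusted p = 0.0059 and 0.00765, limma). Thy1 and Col1a1 differed by -0.10 and -0.23 and did not pass (adjusted p = 0.774 and 0.078). Whether any such cells were present in the sorted strains, or took part in the Mmp2 signal, was not tested. In these bulk RNA samples a different number of cells of a type and a different amount of RNA per cell cannot be told apart.

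The second gelatinase, Mmp9 (chr2:164940326-164955850), passed the filters in neither comparison. Its log2 levels were 4.58, 4.62 and 4.27 in the HC11-mutB1 arrays, 4.98, 5.20 and 4.99 in the HC11-ΔSAP arrays, and 4.82, 4.62 and 4.60 in the HC11-FL arrays. HC11-mutB1 and HC11-FL cells overlapped, and HC11-ΔSAP cells were above both by a small margin. The difference from HC11-FL was -0.19 in HC11-mutB1 cells (95% interval -0.44 to 0.07, adjusted p = 0.343) and 0.37 in HC11-ΔSAP cells (0.12 to 0.63, adjusted p = 0.0534, limma).

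Mmp11 (chr10:75923221-75932502), the stromelysin that is activated inside the cell before secretion, also changed by less than the fold minimum. Its log2 levels were 7.54, 7.53 and 7.37 in the HC11-mutB1 arrays, 7.20, 7.18 and 7.36 in the HC11-ΔSAP arrays, and 7.57, 7.69 and 7.76 in the HC11-FL arrays. HC11-ΔSAP cells were the lowest here, unlike for the clustered genes. The differences from HC11-FL were -0.20 in HC11-mutB1 (adjusted p = 0.138) and -0.43 in HC11-ΔSAP cells (SE 0.08, adjusted p = 0.00508), and the adjusted p of the second ranged between 0.00227 and 0.0456 over 16 alternatives, 8 of which put it over 0.01.

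The membrane-anchored Mmp14 (chr14:54431598-54442456) had log2 levels of 9.86, 9.87 and 9.95 in the HC11-mutB1 arrays, 10.28, 10.24 and 10.25 in the HC11-ΔSAP arrays, and 10.28, 10.32 and 10.28 in the HC11-FL arrays. HC11-mutB1 cells stood below the other two strains, and HC11-ΔSAP and HC11-FL cells were 0.04 log2 units apart. The difference from HC11-FL was -0.40 in HC11-mutB1 cells (SE 0.04, adjusted p = 2.97e-04), a fold of 1.32, and -0.04 in HC11-ΔSAP cells (95% interval -0.14 to 0.06, adjusted p = 0.628). The second membrane type, Mmp15 (chr8:95352296-95374293), had log2 levels of 5.41, 5.21 and 5.28 in the HC11-mutB1 arrays, 7.15, 6.88 and 7.17 in the HC11-ΔSAP arrays, and 6.34, 6.34 and 6.44 in the HC11-FL arrays. Every HC11-mutB1 array lay below and every HC11-ΔSAP array above the HC11-FL arrays, with mean differences of -1.07 and 0.69, the only gene of the 10 placed in this way.

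**Figure D2:**
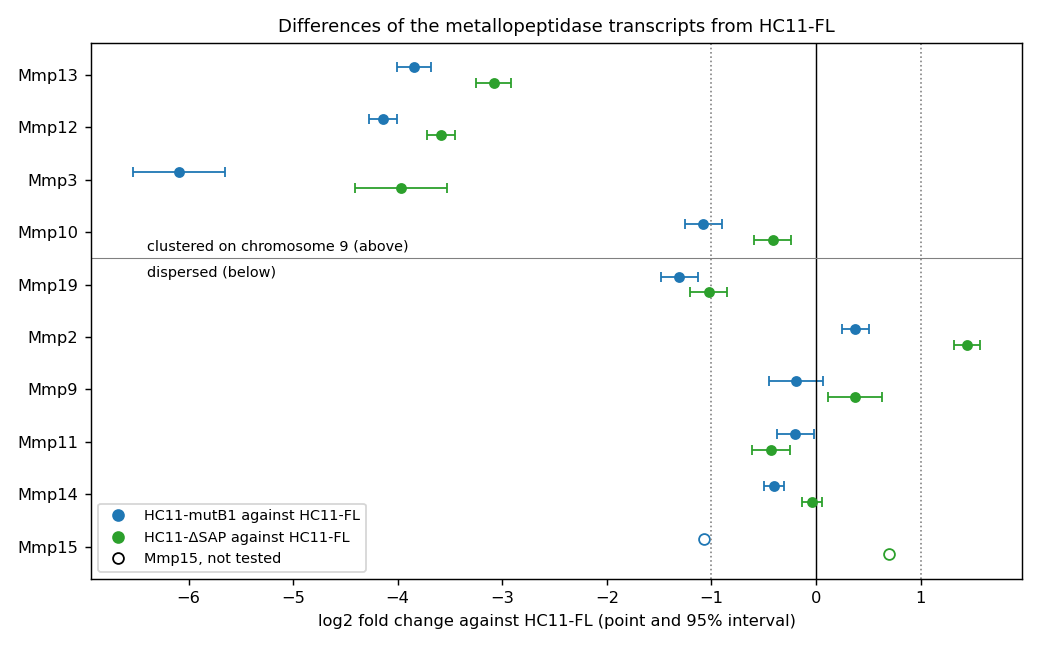
Log2 fold change against HC11-FL (x axis) of each metallopeptidase (y axis) in HC11-mutB1 (blue) and HC11-ΔSAP (green) cells. Points are fitted differences with their 95% interval (limma, 3 arrays per strain), dotted lines mark a 2-fold change, and open points are Mmp15, which was not tested. The clustered genes Mmp13, Mmp12 and Mmp3 lie beyond -3 in both strains, and Mmp2 lies at 1.44 in HC11-ΔSAP cells.

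As a group, the clustered genes had a median log2 fold change of -3.99 for HC11-mutB1 and of -3.33 for HC11-ΔSAP cells, and the 5 dispersed genes one of -0.20 and -0.04. Over all genes tested the medians were -0.01 and 0.00, and the median sizes of a difference regardless of sign were 0.17 and 0.16. By the adjusted p alone, without a fold minimum, 6 of 9 genes fell and 1 rose in each mutant strain, beside 10.6% lower and 15.7% higher of all genes in HC11-mutB1 and 12.0% and 16.0% in HC11-ΔSAP cells. In HC11-ΔSAP cells 2 of these 6, Mmp10 and Mmp11, lost the call in 10 and 8 of 16 alternatives. The arrays of a mutant strain did not overlap with those of HC11-FL for 8 of 9 genes in HC11-mutB1 and for 9 of 9 in HC11-ΔSAP cells, whereas this held for 55.1% and 53.4% of all genes. The gap was only 0.028 log2 units for Mmp11 in HC11-mutB1 and 0.004 for Mmp14 in HC11-ΔSAP cells. Neither of these differences passed the adjusted p (0.138 and 0.628, limma), nor did that of Mmp9 in HC11-ΔSAP cells (0.0534). With 3 arrays on each side an exact, two-sided permutation test cannot go below p = 0.1, so single genes were judged by the fit across all probesets.

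Set against each other, the mutant strains differed in all 4 clustered genes, each of which lay above its HC11-mutB1 levels in HC11-ΔSAP cells without overlap. Mmp3 differed most, by 2.12 log2 units (4.35-fold, 95% interval of the log2 difference 1.68 to 2.56, adjusted p = 1.57e-04), or at least 3.34-fold with values under 4 set to 4. Mmp13 differed by 0.76 (1.69-fold, adjusted p = 2.01e-04), Mmp10 by 0.67 (1.59-fold, adjusted p = 6.05e-04) and Mmp12 by 0.55 (1.47-fold, adjusted p = 3.09e-04), all under the fold minimum. Mmp2 was 2.09-fold higher in HC11-ΔSAP cells (log2 difference 1.07, SE 0.05, adjusted p = 7.57e-06). Of the 9 genes, 2 passed the 3 filters as higher (1.61% of all genes) and 0 as lower (2.28%), and 6 passed the adjusted p alone as higher (9.86%) and 0 as lower (10.6%). Besides the 4 clustered genes and Mmp2, the sixth was Mmp14 (0.36, SE 0.04, adjusted p = 6.47e-04).

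Differences of Mmp9 (0.56, adjusted p = 0.0111), Mmp19 (0.28, adjusted p = 0.0434) and Mmp11 (-0.23, adjusted p = 0.0916) between the mutant strains did not pass in limma, although none of their arrays overlapped. Such separation was found for 51.0% of all genes in this comparison. The median difference of HC11-ΔSAP from HC11-mutB1 cells was 0.71 over the clustered and 0.36 over the dispersed genes, beside 0.02 over all genes. Mmp15, outside the counts, was 1.76 log2 units higher in HC11-ΔSAP cells in this comparison.

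The clustered genes span 237.7 kb of chromosome 9 (chr9:7272514-7510242), which hold 6 metallopeptidase genes in the order Mmp13, Mmp12, Mmp1b, Mmp3, Mmp1a and Mmp10, and the run continues with Mmp8, Mmp27, Mmp20 and Mmp7 to a length of 427.1 kb. Mmp1b and Mmp1a, the mouse relatives of the interstitial collagenase, lie between the genes that fell and averaged 2.53 and 2.64 in HC11-mutB1, 2.59 and 2.60 in HC11-ΔSAP, and 2.54 and 2.68 in HC11-FL cells. Signals this far under 4 are not above background, so a decrease could not have been measured there. The same holds for Mmp8, the collagenase of neutrophils, for Mmp27 and for the enamel enzyme Mmp20, which averaged 2.86 to 3.88 in the 3 strains. Mmp7, known as matrilysin, averaged 3.19 ± 0.08 in HC11-mutB1, 3.39 ± 0.10 in HC11-ΔSAP and 4.47 ± 0.24 in HC11-FL cells (SD, n = 3 each), and its mean of 3.68 over the arrays left it outside the genes tested.

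Genes beside the run that are no metallopeptidases were measured as well. Dcun1d5, next to Mmp13, averaged 9.45 in HC11-mutB1, 9.33 in HC11-ΔSAP and 10.80 in HC11-FL cells. Tmem123, next to Mmp7, averaged 9.55, 9.29 and 10.89 in the same order. Both genes passed as lower in HC11-mutB1 and HC11-ΔSAP cells, by 2.55- and 2.77-fold for Dcun1d5 and by 2.53- and 3.03-fold for Tmem123 (highest adjusted p = 1.4e-05, limma). The difference of HC11-ΔSAP from HC11-mutB1 cells was -0.12 for Dcun1d5 (adjusted p = 0.44) and -0.26 for Tmem123 (adjusted p = 0.0477), neither past the threshold, while that of each clustered gene was positive. One gene farther out, Birc2, an inhibitor of apoptosis, was lower in both mutants, 2.70-fold in HC11-mutB1 (adjusted p = 2.52e-05) and 3.38-fold in HC11-ΔSAP (adjusted p = 8.98e-06). Dync2h1, a dynein heavy chain at the other end, was lower by 1.36- and 1.52-fold (adjusted p = 0.00316 and 5.48e-04), under the fold minimum. HC11-ΔSAP differed from HC11-mutB1 cells by -0.32 for Birc2 (adjusted p = 0.059) and by -0.16 for Dync2h1 (adjusted p = 0.209), again not past the threshold. Whether the region changed as a whole was not tested.

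**Figure D3:**
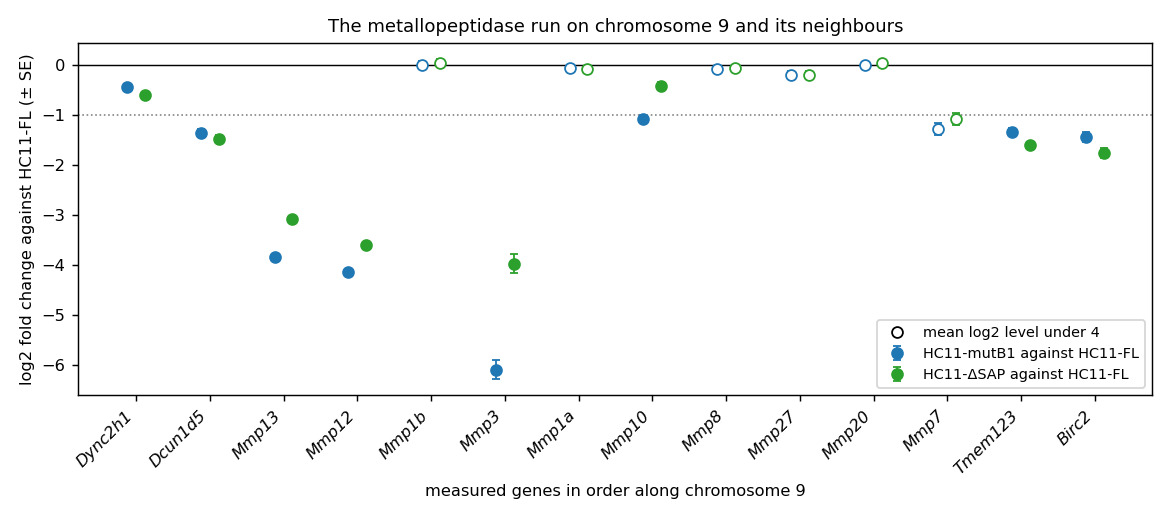
Log2 fold change against HC11-FL (y axis, ± SE) of the measured genes in their order along chromosome 9 (x axis, not to scale) in HC11-mutB1 (blue) and HC11-ΔSAP (green) cells. Open points are genes with a mean log2 level under 4, and the dotted line marks a 2-fold decrease. Mmp13, Mmp12, Mmp3 and Mmp10 alternate with Mmp1b and Mmp1a, whose signals of 2.53 to 2.68 are too low to show a change.

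The bases upstream of the start sites are shown as a description, and their part in the differences between the strains was not tested. In many metallopeptidase genes the proximal promoter holds an AP-1 element, the site of Fos and Jun dimers, near a TATA box. Promoter windows of 250 bases before to 50 after the start came from RefSeq (GRCm38.p6), which gave 8 windows for 7 of the 10 genes (Mmp2, Mmp9 and Mmp19 are named only). They were searched on both strands for AP-1 (TGAGTCA), ETS (AGGAAG), RUNX (AACCACA) and the CArG box of SRF. The TATA box (TATAAA) was searched only on the strand of the gene. No match of one motif overlapped one of another. The 110 bases before the start are printed 5′ to 3′ with AP-1 and TATA matches in capitals, for the 4 clustered genes, for Mmp1a as a neighbour whose signal is not above background, and for the dispersed Mmp14.
Mmp13 (chr9:7272404-7272513, plus strand): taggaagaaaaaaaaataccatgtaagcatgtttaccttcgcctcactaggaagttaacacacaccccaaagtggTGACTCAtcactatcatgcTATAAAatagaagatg
Mmp12 (chr9:7347264-7347373, plus strand): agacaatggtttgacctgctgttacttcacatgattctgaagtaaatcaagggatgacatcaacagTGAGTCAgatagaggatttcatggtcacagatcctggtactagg
Mmp3 (chr9:7445712-7445821, plus strand): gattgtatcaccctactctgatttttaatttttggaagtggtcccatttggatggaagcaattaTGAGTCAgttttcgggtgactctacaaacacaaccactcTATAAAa
Mmp10 (chr9:7502232-7502341, plus strand): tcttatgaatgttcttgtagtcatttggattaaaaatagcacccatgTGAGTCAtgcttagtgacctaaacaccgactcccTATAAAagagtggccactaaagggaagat
Mmp1a (chr9:7464031-7464140, plus strand): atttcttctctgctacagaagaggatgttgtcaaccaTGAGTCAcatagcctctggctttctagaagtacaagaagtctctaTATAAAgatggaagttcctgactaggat
Mmp14 (chr14:54431488-54431597, plus strand): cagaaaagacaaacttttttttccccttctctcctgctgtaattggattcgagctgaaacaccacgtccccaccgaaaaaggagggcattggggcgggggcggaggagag

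Each clustered gene had a window with both an AP-1 and a TATA match. The AP-1 match began at -35 in Mmp13, where it lies on the minus strand and reads TGACTCA on the strand shown, at -44 in the second start window of Mmp12, at -46 in Mmp3 and at -63 in Mmp10, and the TATA box match at -16, 5, -7 and -29 of these genes, counted from the RefSeq start, so that the match of Mmp12 lies past the stretch shown. The first start window of Mmp12 held neither. Over all 32851 windows of 27025 genes, AP-1 was found in 5.2%, TATA in 8.32% and both in 0.624%. Both motifs were also present in Mmp1a, Mmp1b and Mmp7, whose mean signals were under 4. Neither was found in Mmp11, Mmp14 or Mmp15.

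No window of a metallopeptidase gene held a CArG box, which was present in 1.63% of all windows. Among the 7 genes with windows, ETS matches (35.4% of all windows) occurred in Mmp13 (2), Mmp3, the first window of Mmp12 and Mmp14, and a RUNX match (5.27%) occurred in Mmp13. In the rest of the family ETS matches were also found in Mmp1a, Mmp1b, Mmp7, Mmp8, Mmp21 and Mmp25, and RUNX matches in Mmp7 and Mmp27. Such matches are letters in a short window and were not tested for binding.

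The genes whose pair of differences from HC11-FL lay nearest to that of a metallopeptidase were searched among all genes tested, with the distance taken over the 2 log2 fold changes. Nearest to Mmp2 were Gpr84 (distance 0.10), Galnt12 (0.10) and Abca1 (0.11), all higher in HC11-ΔSAP cells. For the clustered genes the distances rest partly on signals at or under background and are approximate. Nearest to Mmp12 were Lrrtm4 (0.26), Mmp13 (0.59) and Slfn3 (0.64), but Lrrtm4 was under 4 in the mutants, at 2.91 (HC11-mutB1) and 3.11 (HC11-ΔSAP), and with values under 4 set to 4, an alternative chosen after seeing the data, it was no longer among the 3 nearest and Mmp13 came first (0.60). Nearest to Mmp13 were Slfn3 (0.33), Mmp12 (0.59) and Pvt1 (0.59), of which Slfn3 (0.30) and Pvt1 (0.56) stayed among the 3 nearest with that floor. For Mmp2 the floor replaced Galnt12, which averaged 4.08 in HC11-FL cells, by Dusp1 (0.13). Nearest to Mmp3 were Dock11 (1.42), Acss3 (1.58) and Mmp12 (1.98), or 1.48, 1.54 and 1.61 with the floor, and both Dock11 (2.99) and Acss3 (3.69) were under 4 in HC11-mutB1 cells. The 2 differences share the HC11-FL arrays, and the distances are descriptions over 3 strains.

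Most of the remaining metallopeptidase genes had a mean log2 level under 4, among them Mmp7, which averaged 4.47 in HC11-FL cells. Of 13 further members of the family, 4 reached a mean log2 level of 4, among them Mmp17, Mmp23 and Mmp28, and of these only Mmp28, known as epilysin, passed the adjusted p. It averaged 6.69 ± 0.03 in HC11-mutB1, 6.75 ± 0.13 in HC11-ΔSAP and 5.87 ± 0.07 in HC11-FL cells (SD, n = 3 each), higher by 0.82 and 0.87 on the log2 scale (adjusted p = 1.09e-04 and 6.92e-05, limma), both under the fold minimum. Mmp17 averaged 4.56, 4.72 and 4.66 and Mmp23 4.06, 3.98 and 4.10 in the same order of strains.

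Of 7 inhibitor genes 4 were expressed, of which 1 fell and 2 rose in HC11-mutB1 cells by the adjusted p (10.6% and 15.7% of all genes), while 1 fell and 1 rose in HC11-ΔSAP cells (12.0% and 16.0% of all genes). Timp1, which inhibits most secreted metallopeptidases, averaged 10.53 ± 0.07 in HC11-mutB1, 9.48 ± 0.06 in HC11-ΔSAP and 9.72 ± 0.02 in HC11-FL cells. In HC11-mutB1 cells it was higher by 1.75-fold (adjusted p = 2.21e-05, limma) and differed by -0.23 in HC11-ΔSAP cells (adjusted p = 0.0156). Between the mutant strains it was lower in HC11-ΔSAP by 1.04 log2 units and passed the 3 filters. Timp2, which also takes part in Mmp2 activation by Mmp14, was higher by 0.35 and 0.42 in HC11-mutB1 and HC11-ΔSAP cells, and the membrane-anchored inhibitor Reck was lower by 0.63 and 0.57 (highest adjusted p of the 4 differences 5.33e-04).

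Proteases and receptors that activate or anchor metallopeptidases changed in both directions. Of 14 expressed genes, 5 fell and 4 rose in HC11-mutB1 cells (10.6% and 15.7% of all genes), and 3 fell and 6 rose in HC11-ΔSAP cells (12.0% and 16.0% of all genes), by the adjusted p, with medians of -0.02 and 0.15. Plau, the urokinase that generates plasmin, averaged 5.89 in HC11-mutB1, 6.68 in HC11-ΔSAP and 7.13 in HC11-FL cells, lower by 2.37-fold (adjusted p = 1.78e-05) and 1.37-fold (adjusted p = 0.00384, limma). This is the order of strains seen in the clustered genes. Plat, the tissue plasminogen activator, averaged 8.25, 9.96 and 8.69, and Itgb3, an integrin subunit, 6.52, 5.46 and 5.43 in that order. The 1 expressed plasminogen inhibitor of the list, Serpinf2, averaged 4.86, 4.93 and 4.90.

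The genes for AP-1, ETS and RUNX factors, which are known to act at metallopeptidase promoters, changed in both directions. Of 15 expressed genes, 4 fell and 3 rose in HC11-mutB1 cells, and 3 fell and 2 rose in HC11-ΔSAP cells, by the adjusted p, with medians of -0.08 and -0.10. Over all genes 10.6% fell and 15.7% rose in HC11-mutB1 cells, beside 12.0% and 16.0% for HC11-ΔSAP cells. Only Etv5, an ETS factor, passed the 3 filters, with 6.09 ± 0.08 in HC11-mutB1 and 4.66 ± 0.20 in HC11-FL cells (2.70-fold, adjusted p = 2.78e-05, limma). In HC11-ΔSAP cells Etv5 averaged 5.55 ± 0.02. The related Etv4 averaged 5.98, 5.50 and 5.09, and Ets1 8.11, 7.59 and 8.37 in HC11-mutB1, HC11-ΔSAP and HC11-FL cells.

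Among 17 expressed genes for matrix substrates of these enzymes, 1 fell and 6 rose in HC11-mutB1 cells (10.6% and 15.7% of all genes), and 2 fell and 5 rose in HC11-ΔSAP cells (12.0% and 16.0% of all genes), by the adjusted p. Acan, the cartilage proteoglycan aggrecan, averaged 8.45 in HC11-mutB1, 5.69 in HC11-ΔSAP and 6.01 in HC11-FL cells, and the glycoprotein tenascin-C (Tnc) averaged 10.34, 7.62 and 9.24. Dcn ran the other way, highest in HC11-ΔSAP cells. Of 9 expressed cytokines and growth factors that are known to induce metallopeptidases, 0 fell and 2 rose in HC11-mutB1 cells, and 1 fell and 3 rose in HC11-ΔSAP cells, by the adjusted p, with the same shares of all genes. The gene that fell was Il1a, the cytokine interleukin 1 alpha, which was chosen after its values were seen and averaged 9.45 in HC11-mutB1, 8.70 in HC11-ΔSAP and 9.38 in HC11-FL cells. Ereg, an EGF receptor ligand, averaged 8.63 in HC11-mutB1, 9.54 in HC11-ΔSAP and 6.41 in HC11-FL cells, Tgfb2 7.43, 7.65 and 6.64, and Lif 7.80, 8.34 and 7.62.

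**Figure D4:**
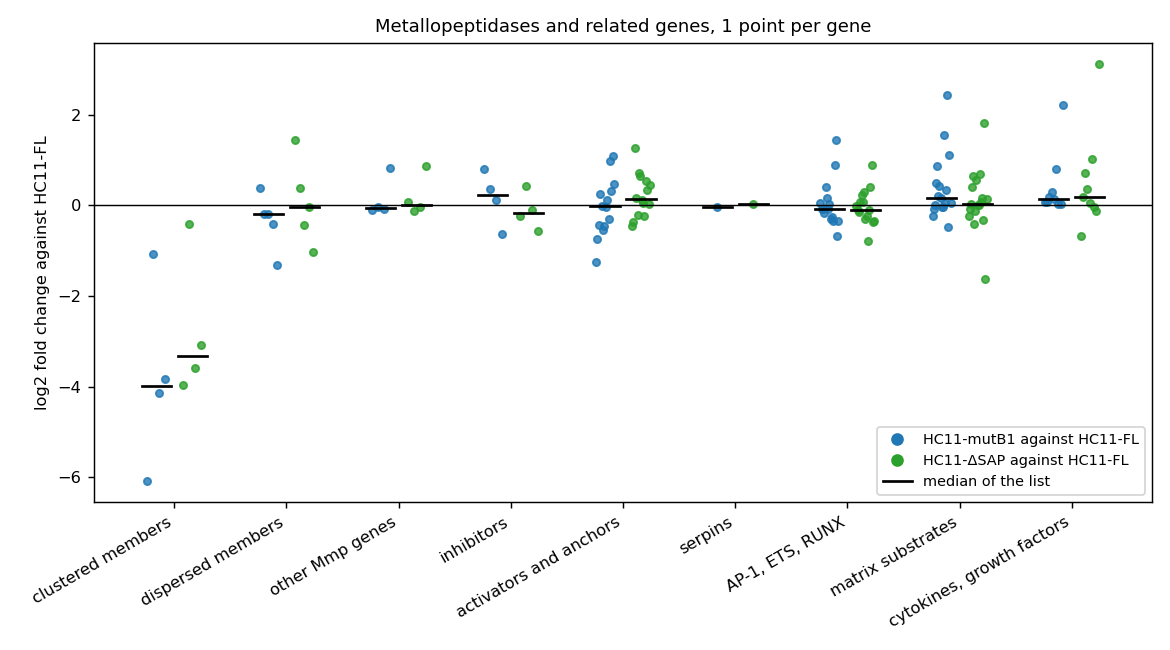
Log2 fold change against HC11-FL (y axis) of the clustered and dispersed metallopeptidases and of the related gene lists (x axis) in HC11-mutB1 (blue) and HC11-ΔSAP (green) cells. Each point is a gene with a mean log2 level of at least 4 and black lines are medians. The clustered genes have medians of -3.99 and -3.33, and the expressed AP-1, ETS and RUNX genes of -0.08 and -0.10.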

How the data were processed

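The authors deposited 1 table of log2 expression levels of 34760 probesets for 9 Affymetrix mouse gene arrays (3 strains, 3 arrays each), made with RMA, which corrects background, brings the arrays to 1 distribution and summarises the probes of a probeset. R 2.10.0 and affy are named in the submitters' processing notes. Array annotation gave 1 symbol to 21640 probesets, several to 1321 and none to 11799. Per gene, the single-symbol probeset with the highest mean was used. A linear model with 1 mean per strain (limma 3.58.1, R 4.3.3, 6 residual degrees of freedom) was fitted to all probesets, was tested on simulated data, and its p-values were adjusted over all of them. The number of arrays limits the precision. Named genes were the 10 metallopeptidases, the 3 genes of each related list with the largest change, the 3 nearest genes in response, and genes along the chromosome 9 run. The members, lists and tests were chosen with earlier results of these data known. Gene positions and promoters came from RefSeq (GRCm38.p6). Alternatives covered the fit, scaling, filters, replicate block and each array left out. Scans, slides and scan dates were not used here.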

Additional observations from a re-analysis of the deposited data

Results flagged for a closer look

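By the direct test of HC11-ΔSAP against HC11-mutB1 cells (limma), the effects of the 2 mutants relative to HC11-FL differed by 2-fold or more in 2 of the 6 metallopeptidases that passed the adjusted p. Mmp3 had a fitted difference of 2.12 log2 units, higher in HC11-ΔSAP cells, which is at least 1.74 with values under 4 set to 4, since its HC11-mutB1 signal lay under background. Mmp2 was 1.07 log2 units higher in HC11-ΔSAP cells. The level of Mmp15 differed by 1.76 log2 units between them, with every HC11-mutB1 array below and every HC11-ΔSAP array above the HC11-FL arrays, and this difference was not tested.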

How the results depend on the processing

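The directions of the 27 differences of the 9 genes did not change under any of the alternatives run (other fits, scalings and filters, a raised spread, the replicate block, and each of the 9 arrays left out). Other filters, another prior, the raised spread, the fit of only the 2 strains compared and the replicate block leave the fitted differences as they are. Only median centring, values under 4 set to 4, array weights and left-out arrays could have changed a direction. Of the calls by the 3 filters, the one of Mmp19 in HC11-ΔSAP against HC11-FL cells was lost without HC11-ΔSAP replicate 1 (-0.99), and no other was lost. With a fold minimum of 1.5, 4 rather than 2 genes were higher in HC11-ΔSAP cells when set against HC11-mutB1 cells, since Mmp10 and Mmp13 joined. The share of all genes passing at that minimum was not counted, so this rise is no result about the family. The median difference of the clustered genes in that comparison was 0.70 with values under 4 set to 4 and 0.70 with array weights, and 0.66 to 0.79 with arrays left out, and that of the dispersed genes was 0.35 to 0.39. With Mmp15 added, a choice made after seeing the data, the dispersed median was 0.17 for HC11-ΔSAP against HC11-FL and 0.46 for HC11-ΔSAP against HC11-mutB1. Deviations of equally numbered arrays correlated at -0.11 to 0.26 and exceeded 0.1 in 3 of 9 pairs, all 3 of replicate 1. Those of differently numbered arrays correlated at -0.26 to 0.23 and exceeded 0.1 in 2 of 18 pairs. Whether the replicate numbers pair the samples is therefore not settled, and the main fit did not pair them. With the replicate block, 5 genes were lower in HC11-mutB1 cells and 4 were lower in HC11-ΔSAP cells, and the calls that changed were the small ones by adjusted p alone in HC11-ΔSAP cells, Mmp10 (0.0121) and Mmp11 (0.0186). By the adjusted p alone, 7 of 27 differences changed side of 0.01 in at least 1 of 16 alternatives. These were Mmp10 and Mmp11 in HC11-ΔSAP against HC11-FL cells (10 and 8 of 16, up to 0.0534 and 0.0456), Mmp2 and Mmp14 in HC11-mutB1 against HC11-FL cells (up to 0.0794 and 0.063), and Mmp9, Mmp12 and Mmp14 between the mutant strains (0.00692 at the lowest for Mmp9, 0.0209 and 0.111 at the highest for Mmp12 and Mmp14). The raised spread, chosen after seeing that values recur between arrays, gave the highest of these. Levels of Mmp3 and Mmp13 in HC11-mutB1 cells lie at background, which limits their folds to lower bounds.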
